A study of Mus musculus with 18 samples.

Results

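Telomerase and shelterin are the machinery that lengthens and covers the ends of chromosomes. Genes of both and Rif1, 10 in all, were followed here in mouse embryonic stem (ES) cells and in differentiated (ED) cells grown from them. The genes were those of the telomerase subunits Tert and Dkc1, the shelterin subunits Terf1, Terf2, Terf2ip, Tinf2, Acd, Pot1a and Pot1b, and Rif1. They were chosen by name, although earlier results of these data were known at the time. Probes were found through the RefSeq accession that the array gives each probe. All 10 genes were among the 34289 names on the array, with 11 of its 37246 probes, since Terf2 had a second probe.

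Expression was measured on 18 arrays, 3 for each of 6 groups: unirradiated ES cells, ES cells 15 min (ESRE) and 4 h (ESRL) after 10 Gy of ionizing radiation (IR), unirradiated ED cells, and ED cells 15 min (EDRE) and 4 h (EDRL) after the same dose. The early passage primary ES cells were grown with the cytokine LIF and without feeder cells, and ED cells were made from them by about 1 week without LIF, an undirected differentiation that names no lineage. The sources do not say that the replicates came from separate cultures, so the p-values measure the spread between these samples, which may be technical.

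A telomere ends in a long tract of short repeats, and it shortens at each division unless telomerase adds repeats back. Tert is the reverse transcriptase of that enzyme and Dkc1 (dyskerin) binds and stabilizes its RNA template. Shelterin coats the repeats: Terf1 and Terf2 bind the duplex, Tinf2 ties them together, Acd (TPP1) recruits telomerase and holds Pot1, Pot1 covers the single strand, and Terf2ip (Rap1) rides on Terf2. Rif1 acts at broken DNA ends, where it limits resection together with 53BP1, and it sets the timing of replication. Stem cells of the early embryo are known for active telomerase.

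The labels of the cells were checked against marker genes. The summed level of 10 stem cell genes was 583 to 593 times the array's 75th percentile in ES and 17.5 to 23.1 times in ED, and Pou5f1 (Oct4) was lower in ED by a log2 change of -10.29 ± 0.28 (SE, n = 3 a group). Of 9 stem cell genes tested 8 were lower in ED and 0 higher, Klf4 being the exception (0.05 ± 0.23). Of 13 genes of differentiated lineages tested 4 were higher and 8 lower, with a median change of -1.41. Col1a1 (5.55 ± 0.20) and S100a4 (10.20 ± 0.30) were among the higher, while Thy1, Cdx2 and Krt18 were above background on no ED array. Ptprc, the blood cell marker CD45, was above background on no array of any group. In mixed cells, a change in the number of cells of a type and a change in RNA per cell cannot be told apart.

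A level below is the log2 processed signal of a probe minus that of its array's 75th percentile, and levels are compared only within a probe. Changes are differences of these levels, tested with limma over all probes detected, and a gene was called higher or lower where its Benjamini-Hochberg adjusted p was under 0.05. Several arrays stood apart. EDRE replicates 2 and 3 had 75th percentiles of 875 and 1155 signal units where the other arrays ran from 1952 to 4268, and outlier marks took 24.4% and 23.8% of their spots against 3.33% to 11.1% elsewhere. ESRL replicate 1 had the lowest 75th percentile, 1952, among the others. The arrays were scanned at 6 times. All ES arrays shared a scan that held no other group, so scan and group cannot be told apart in a comparison with ES. The same holds for EDRE against ESRE, EDRL against ESRL, and EDRE or EDRL against ED, since no scan held arrays of both groups.

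Tert was the member with the largest difference between the cell types in unirradiated cells. Its level was -2.65, -2.18 and -2.53 on the ES arrays and -5.23, -5.39 and -5.97 on the ED arrays, or a geometric mean of 588 signal units against 82.8. The groups did not overlap, and Tert was lower in ED by -3.08 ± 0.31 (adjusted p = 7.38e-07), a change of 8.44-fold. Tert was also called lower after IR. The ESRE arrays read -3.47, -3.10 and -3.83 and the EDRE arrays -5.04, -5.69 and -4.98, a change of -1.77 ± 0.31 (adjusted p = 1.62e-04). The ESRL arrays read -3.25, -2.70 and -2.38 and the EDRL arrays -4.34, -5.21 and -5.08, a change of -2.10 ± 0.31 (adjusted p = 2.96e-05). Every array of ES, ESRE and ESRL lay above every array of ED, EDRE and EDRL. Tert was well above background on all arrays except EDRE replicate 2.

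**Figure D1:**
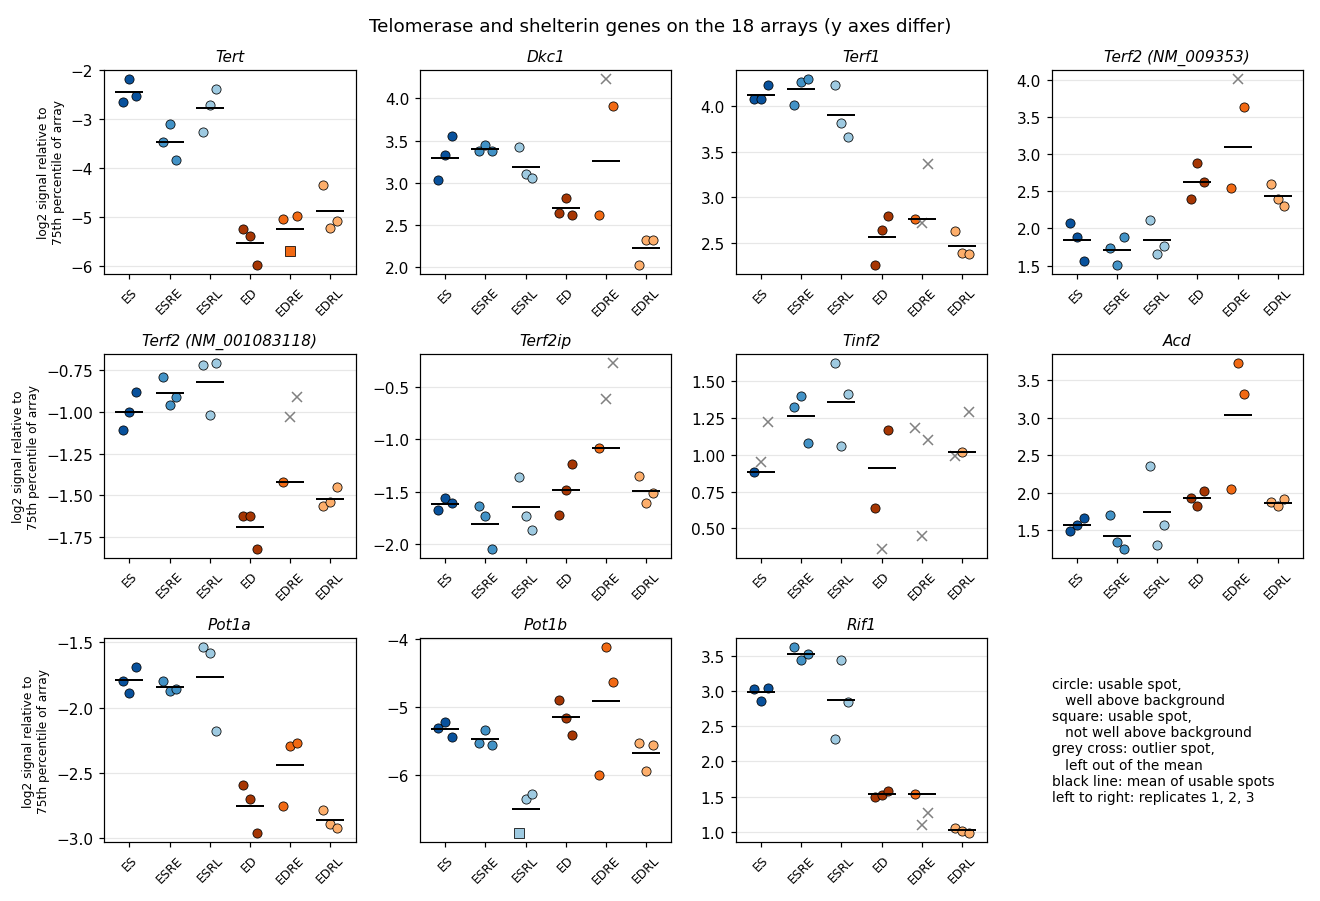
Level of the 11 probes of telomerase and shelterin genes and Rif1 on the 18 arrays, as log2 signal minus the array's 75th percentile. Levels are on the y axis (scales differ between panels) and the 6 groups on the x axis. Each replicate has 1 point, and a line marks the mean of usable spots. Tert, Terf1 and Rif1 were lower in the 3 ED groups without overlap, and the grey crosses show how many EDRE spots were marked as outliers and left out.

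Ordered by their mean, the groups ran from ES (-2.45 ± 0.25, SD) through ESRL (-2.78 ± 0.44) and ESRE (-3.47 ± 0.37) to EDRL (-4.88 ± 0.47), EDRE (-5.24 ± 0.40) and ED (-5.53 ± 0.39), each with n = 3. Neighbours within a cell type were not called different, with adjusted p-values of 0.576 (ESRL against ES), 0.207 (ESRL against ESRE), 0.483 (EDRL against EDRE) and 0.617 (EDRE against ED), and ESRE against EDRL was not tested. The size of the Tert difference depended on which arrays were compared. Against the 1 ESRE array scanned together with the ED arrays, which was irradiated where the ED arrays were not, it was -1.70. The EDRE difference shrank to -0.13 (adjusted p = 0.758) under quantile normalization, while -3.08 became -2.82 and -2.10 became -1.60 under the same normalization and stayed called.

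The promoters of Tert and of the paired Pot1 genes are shown because Tert and Pot1a were both called lower in ED while Pot1b, the near relative of Pot1a, was not called. Each sequence is the 250 bases before the annotated start, 5′ to 3′ in the direction of the gene, from RefSeq on GRCm38.p6. Capitals mark a GC box (GGGCGG on either strand), the letters that Sp1 family factors are known to bind, or the telomeric repeat (TTAGGG on either strand).

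Tert, chr13:73626661-73626910, plus strand: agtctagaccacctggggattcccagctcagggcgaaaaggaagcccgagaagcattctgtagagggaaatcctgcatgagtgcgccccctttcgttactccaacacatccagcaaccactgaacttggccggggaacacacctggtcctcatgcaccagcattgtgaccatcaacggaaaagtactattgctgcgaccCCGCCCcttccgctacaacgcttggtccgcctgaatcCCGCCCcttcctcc

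Pot1a, chr6:25809219-25809468, minus strand: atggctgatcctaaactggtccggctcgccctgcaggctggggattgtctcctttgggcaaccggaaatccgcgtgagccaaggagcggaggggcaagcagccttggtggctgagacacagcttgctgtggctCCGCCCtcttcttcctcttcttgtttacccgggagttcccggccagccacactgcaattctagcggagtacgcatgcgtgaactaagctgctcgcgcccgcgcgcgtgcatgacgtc

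Pot1b, chr17:55712637-55712886, minus strand: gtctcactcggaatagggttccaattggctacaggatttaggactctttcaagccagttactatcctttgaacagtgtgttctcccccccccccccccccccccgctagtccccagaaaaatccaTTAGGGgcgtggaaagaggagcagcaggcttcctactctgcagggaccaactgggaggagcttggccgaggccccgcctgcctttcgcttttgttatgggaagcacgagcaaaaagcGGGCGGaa

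The Tert window held 2 GC boxes, with their first bases 51 and 14 bases before the start. Pot1a held 1 GC box, 117 bases before the start, and Pot1b held 1 at 8 bases and a telomeric repeat at 125 bases. For a second annotated start of Pot1b the same matches lay 20 and 137 bases before it. Of 8 member genes with a promoter entry, counted over 300-base windows that run past the start, 5 (Pot1a, Pot1b, Terf2, Terf2ip and Tert) had a GC box, against 35.66% of 32851 promoters. The telomeric repeat was in 1 of the 8 against 10.6%, and the E-box CACGTG, which Myc is known to bind, was in 0 of the 8 against 7.15%. These are matches of letters, and binding was not measured.

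Terf1 and Rif1 were also called lower in the differentiated cells in all 3 states, at 15 min from 1 usable EDRE spot each. Terf1 read 4.08, 4.08 and 4.23 in ES and 2.26, 2.64 and 2.80 in ED, with no overlap, and it was lower by -1.56 ± 0.19 (adjusted p = 1.42e-05). After IR the differences were -1.43 ± 0.26 at 15 min (adjusted p = 4.53e-04) and -1.44 ± 0.19 at 4 h (adjusted p = 2.12e-05). Levels in ESRE ran from 4.01 to 4.3 and in ESRL from 3.66 to 4.23, whereas EDRL ran from 2.38 to 2.63. Only 1 EDRE spot of Terf1 was usable, at 2.76, so the difference at 15 min rests on that array, with the spread taken from the other groups, and it was no longer called when arrays were scaled to their median (-0.53, adjusted p = 0.181).

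Rif1 read 3.03, 2.86 and 3.04 in ES and 1.5, 1.52 and 1.58 in ED. The groups were far apart for their spread, and Rif1 was lower in ED by -1.45 ± 0.22 (adjusted p = 1.17e-04). At 15 min it read 3.62, 3.44 and 3.52 in ESRE and 1.53 on the 1 EDRE array with a usable spot, a difference of -2.0 ± 0.31 (adjusted p = 1.05e-04), with the lone EDRE spot assumed to vary like the other groups. At 4 h it read 2.32, 3.44 and 2.85 in ESRL and 1.06, 1.01 and 0.98 in EDRL, a difference of -1.85 ± 0.22 (adjusted p = 8.90e-06). The lowest stem cell array for Rif1 was ESRL replicate 1, the array with the lower signal. Within the scan shared by the ED arrays and 1 ESRE array the differences were -1.99 for Rif1 and -1.73 for Terf1. That array was irradiated and the ED arrays were not, so cell type and IR both enter these differences.

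Pot1a and Pot1b, which share the task of covering the single strand in the mouse, are given side by side, with the difference between them not tested. Pot1a read -1.80, -1.89 and -1.69 in ES and -2.59, -2.70 and -2.96 in ED, and was lower in ED by -0.96 ± 0.19 (adjusted p = 5.15e-04). It was lower at 15 min by -0.59 ± 0.18 (adjusted p = 0.0125) and at 4 h by -1.10 ± 0.18 (adjusted p = 1.13e-04). The 15 min difference of Pot1a turned to 0.12 with median scaling and to 1.68 with quantile normalization. In unirradiated cells the Pot1a difference was -0.32 (adjusted p = 0.18) with median scaling. Its call there was lost in 6 of 15 other settings, among them quantile normalization and scan time as a random block. At 4 h the Pot1a call was lost in 2 of 14 other settings. Pot1b was near the floor of the array, at 80.3 signal units in ES and 108 in ED. Its levels were -5.31, -5.22 and -5.44 in ES and -4.90, -5.16 and -5.40 in ED, which overlapped, and the difference of 0.17 ± 0.35 was not called (adjusted p = 0.732).

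Of the other shelterin genes, none was called lower in ED by its brighter probe. For Terf2 the array had 2 probes, which disagreed. The brighter probe (NM_009353) read 2.08, 1.88 and 1.56 in ES and 2.4, 2.88 and 2.62 in ED, and was higher in ED by 0.79 ± 0.26 (adjusted p = 0.0182). The dimmer probe (NM_001083118) read -1.11, -1.0 and -0.88 in ES and -1.62, -1.62 and -1.82 in ED, and was lower by -0.69 ± 0.14 (adjusted p = 0.00119). The same split appeared in irradiated cells, with 1.38 ± 0.28 (adjusted p = 8.36e-04) against -0.53 ± 0.20 (adjusted p = 0.0344) at 15 min and 0.59 ± 0.25 (adjusted p = 0.0565) against -0.70 ± 0.14 (adjusted p = 7.47e-04) at 4 h. At 15 min the brighter probe had 2 usable EDRE spots, 2.55 and, on replicate 3, 3.63. The dimmer probe had 1, at -1.42, and its spots left out read -1.03 and -0.91, near the ESRE mean of -0.89. The direction of Terf2 is not settled by these arrays. The call of the brighter probe was lost without ED replicate 2 (adjusted p = 0.0769) or ES replicate 3 (adjusted p = 0.0820).

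Acd, Terf2ip and Tinf2 were not called in unirradiated cells. Acd read 1.49 to 1.66 in ES and 1.83 to 2.02 in ED, a difference of 0.35 ± 0.34 (adjusted p = 0.433) despite groups that did not overlap. Terf2ip read -1.68 to -1.56 in ES and -1.72 to -1.24 in ED, which overlapped, and differed by 0.14 ± 0.18 (adjusted p = 0.593) and Tinf2 by 0.02 ± 0.35 (adjusted p = 0.969), the latter from 1 usable ES spot and 2 usable ED spots. At 15 min Acd was higher in the differentiated cells by 1.60 ± 0.34 (adjusted p = 8.99e-04), and this rested on EDRE replicates 2 and 3, which read 3.73 and 3.32 where replicate 1 read 2.05. Without these arrays the Acd difference was 0.62 (adjusted p = 0.132). Terf2ip was higher at 15 min by 0.73 ± 0.26 (adjusted p = 0.0265), from 1 usable EDRE spot, and at 4 h neither gene was called.

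Dkc1, which belongs to telomerase, was called in 1 of the 3 states. It read 3.03, 3.33 and 3.55 in ES and 2.65, 2.82 and 2.62 in ED, and the difference of -0.61 ± 0.26 missed the threshold (adjusted p = 0.0688). At 15 min it was -0.14 ± 0.29 (adjusted p = 0.706), and at 4 h Dkc1 was lower in EDRL than in ESRL by -0.97 ± 0.26 (adjusted p = 0.00534). The 4 h call was lost in 4 of 14 other settings, and in unirradiated cells Dkc1 was called in 3 of 15 other settings. The EDRE mean was drawn up by replicate 3 at 3.91, beside replicate 1 at 2.62, with the spot of replicate 2 left out. Without EDRE replicates 2 and 3 the 15 min difference of Dkc1 was -0.79 (adjusted p = 0.0111).

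**Figure D2:**
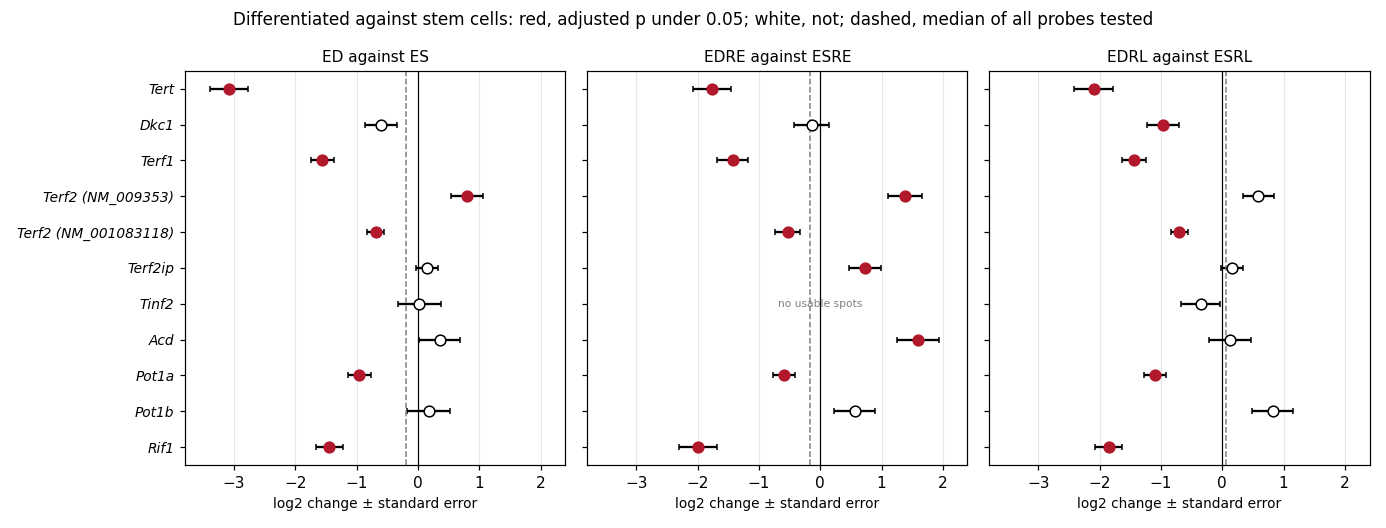
Log2 change of each probe between differentiated and stem cells (x axis, with its standard error as the bar) without IR, 15 min and 4 h after 10 Gy, with called changes in red and the median of all probes tested as a dashed line. Tert, Terf1, Rif1 and Pot1a were called lower in all 3 panels, Terf1 and Rif1 with 1 usable EDRE spot at 15 min, and the probes of Terf2 lay on opposite sides of 0.

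Counted by the brighter probe of a gene, 1 of 10 members was higher in ED than in ES and 4 were lower, where 19.8% of all 28677 probes tested were higher and 32.1% lower. The 1 higher was Terf2, whose 2 probes disagreed. At 15 min 3 of 9 members tested were higher and 4 lower, against 24% and 32.7% of probes, and Tinf2 had no usable EDRE spot. The 3 higher were Terf2, Terf2ip and Acd, and the Acd call rested on EDRE replicates 2 and 3. Terf2ip, and Terf1 and Rif1 among the lower, had 1 usable EDRE spot each. At 4 h 0 of 10 were higher and 5 lower, against 30.2% and 31.8% of probes. The median change of the members was -0.29, -0.14 and -0.66 in the 3 states, beside -0.19, -0.17 and 0.06 for all probes tested. The numbers of members are small beside these shares. At 4 h Terf2 and Pot1b (0.82 ± 0.34, adjusted p = 0.0509) were above 0 with an unadjusted p under 0.05, and the methods' t-test called 2 members higher.

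The balance of higher and lower depended on the scaling. With each array set to its median, the median change of all probes in ED against ES moved from -0.19 to 0.46, the split of called members from 1 higher and 4 lower to 4 and 3, and that of all probes from 38.1% to 62.8% higher. The splits of members became 4 higher and 2 lower at 15 min and 3 and 4 at 4 h. Relative to the median of all probes, the changes in ED against ES were -2.89 for Tert, -1.37 for Terf1, -1.26 for Rif1 and -0.77 for Pot1a. Tert, Terf1 and Rif1 were lower and called under all 15 other settings and all 18 fits without 1 array in ED against ES, and likewise under 14 settings and 18 fits at 4 h.

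The genes that help telomerase and shelterin were taken as 5 lists with 57 genes, of which 52 were on the array and 43 tested in ED against ES. In all, 5 were higher and 22 lower, where 19.8% of all probes tested were higher and 32.1% lower, with a median of -0.19. The list of telomerase assembly, which holds the RNA template, the partners of dyskerin and the chaperones that build the enzyme, had 7 of 10 genes lower and 0 higher, with a median change of -0.94 beside -0.19 for all probes. Shq1, the chaperone of dyskerin, was lower by -2.26 ± 0.33 (adjusted p = 5.22e-05), and Wrap53 (TCAB1), which brings telomerase to Cajal bodies, by -1.60 ± 0.24 (adjusted p = 7.99e-05). The template RNA Terc was not called (-0.72 ± 0.67, adjusted p = 0.417). With median scaling this list had 3 genes lower and 1 higher in ED against ES, and 7 lower and 2 higher at 4 h.

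Among partners of shelterin and end-processing enzymes, 7 of 13 were lower and 3 higher, with a median of -0.62. Of all probes 32.1% were lower and 19.8% higher, with a median of -0.19, so the share higher was near that of all probes. Terb2, which ties meiotic telomeres to the nuclear envelope, was lower by -4.07 ± 0.53 (adjusted p = 2.53e-05), although only 1 ES spot was usable, and by -5.14 ± 0.37 at 15 min (adjusted p = 6.66e-08) and -4.44 ± 0.37 at 4 h (adjusted p = 2.86e-07). The Terb2 spots on EDRE replicates 2 and 3 (-6.59 and -6.44) were not well above background, which leaves the size of its change at 15 min uncertain. The helicase gene Blm was lower by -2.68 ± 0.41 (adjusted p = 6.09e-05). Fbxo4, whose product marks Terf1 protein for degradation, ran the other way. It read 2.07 to 2.23 in ED and -1.57 to -1.38 in ES, higher by 3.60 ± 0.23 (adjusted p = 1.16e-08), and at 15 min by 4.13 ± 0.26 (adjusted p = 6.11e-09). The nuclease subunit gene Ercc1 was higher by 1.38 ± 0.24 (adjusted p = 2.93e-04).

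The genes that work with Rif1 had 4 of 9 lower and 0 higher, with a median of -0.37, beside 32.1% lower, 19.8% higher and a median of -0.19 over all probes. The next lists are small and are to be read against the same shares. Mad2l2 (REV7) and Shld1 of the shieldin arm, which protects broken ends, were lower by -2.11 ± 0.22 (adjusted p = 2.82e-06) and -2.05 ± 0.24 (adjusted p = 6.60e-06), while Trp53bp1 (53BP1) was at -0.28 ± 0.31 (adjusted p = 0.493). Of 4 genes tested of the CST complex, which fills in the end, and of telomere replication, 2 were lower and 1 higher, with Dna2 at -1.35 ± 0.22 (adjusted p = 1.96e-04), Ctc1 at -1.14 ± 0.24 (adjusted p = 0.00147) and Pola1 at 0.79 ± 0.17 (adjusted p = 0.00487). Of 7 genes of telomere chromatin 2 were lower and 1 higher, with the histone methyltransferase Suv39h2 at -1.43 ± 0.19 (adjusted p = 2.76e-05), the histone chaperone Daxx at -1.38 ± 0.14 (adjusted p = 4.26e-06) and Cbx5 (HP1 alpha) at 0.85 ± 0.20 (adjusted p = 0.00333). With scan time as a random block Ctc1 (-1.0), Pola1 (0.79) and Cbx5 (0.82) were no longer called, at changes of about the same size.

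**Figure D3:**
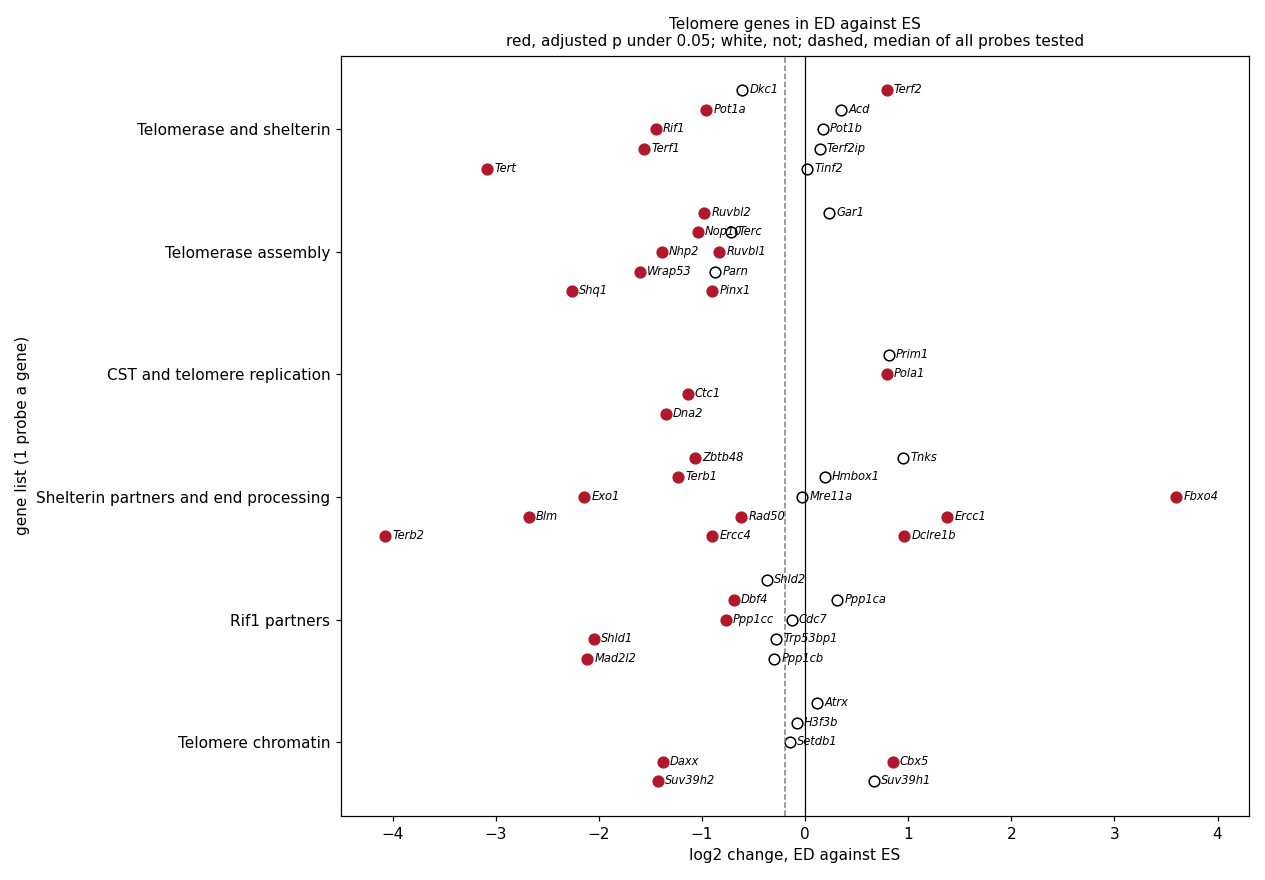
Log2 change in ED against ES (x axis) of telomerase and shelterin genes, Rif1 and genes tested in 5 telomere lists (y axis). There is 1 probe a gene, with called changes in red and the median of all probes tested as a dashed line. Genes of telomerase assembly lay to the left, with 7 of 10 called lower where 32.1% of all probes were, and Fbxo4 and Terb2 lay at the ends of the scale.

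Across the 5 lists 8 of 46 genes were higher and 22 lower at 15 min, and 8 of 47 higher and 25 lower at 4 h. Of all probes 24% were higher and 32.7% lower at 15 min, and 30.2% and 31.8% at 4 h. With median scaling the split turned to 19 higher and 6 lower at 15 min, and was 12 and 12 in unirradiated cells and 15 and 22 at 4 h. Under that scaling 68.6%, 62.8% and 66.0% of the called probes were higher in the same order.

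No member was called after IR in either cell type. In ES cells 0 of 10 were called at 15 min, where 0.563% of probes were, and 0 of 10 at 4 h, where 8.87% were. In ED cells 0 of 9 were called at 15 min, against 7.34% of probes, and 0 of 10 at 4 h, against 2.39%. At an unadjusted p under 0.05 the counts were 2, 1, 1 and 1 in that order, where 9.44%, 25.0%, 26.1% and 13.9% of all probes passed. The methods' t-test called 0, 0, 0 and 1, and in the last comparison it called 12.01% of probes. That 1 was Rif1 in EDRL, at -0.52 ± 0.22 (adjusted p = 0.310 in limma and 0.0124 in the methods' t-test).

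Several members differed by more than their standard error without passing the test. Tert was at -1.01 ± 0.31 in ESRE against ES (adjusted p = 0.208), and its ESRE arrays did not overlap with the ES arrays. In ED cells Tert was at 0.29 ± 0.31 at 15 min and 0.65 ± 0.31 at 4 h. Rif1 was at 0.55 ± 0.22 in ESRE against ES (adjusted p = 0.435), again without overlap. In a fit of these 2 groups alone Rif1 was called there (adjusted p = 0.0406), and with scan time as a random block it was at 0.36 and not called.

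Acd was at 1.11 ± 0.34 in EDRE against ED (adjusted p = 0.0589) and was called in 6 of 14 other settings. It read 1.93, 1.83 and 2.02 in ED and 2.05, 3.73 and 3.32 in EDRE. Without EDRE replicates 2 and 3 the change was 0.13 (adjusted p = 0.914).

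Pot1b came closest to the threshold. It read -5.31, -5.22 and -5.44 in ES, -5.52, -5.34 and -5.55 in ESRE, and -6.85, -6.35 and -6.27 in ESRL, so that all ESRL arrays lay below the others. The change in ESRL against ES was -1.17 ± 0.35 (adjusted p = 0.0502). The mean ESRL signal was 30.7 units, and the spot of ESRL replicate 1 was not well above background. Without that array the change was -0.99 (adjusted p = 0.176), and without EDRE replicates 2 and 3 it was called (adjusted p = 0.00208). The EDRE spots of Pot1b were -5.99 on replicate 1 and -4.12 and -4.63 on the others. Within the scan shared by ESRE and ESRL arrays Pot1b was lower at 4 h than at 15 min by -0.88 (adjusted p = 0.0467), against -1.02 ± 0.34 (adjusted p = 0.0978) in the fit without scan.

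**Figure D4:**
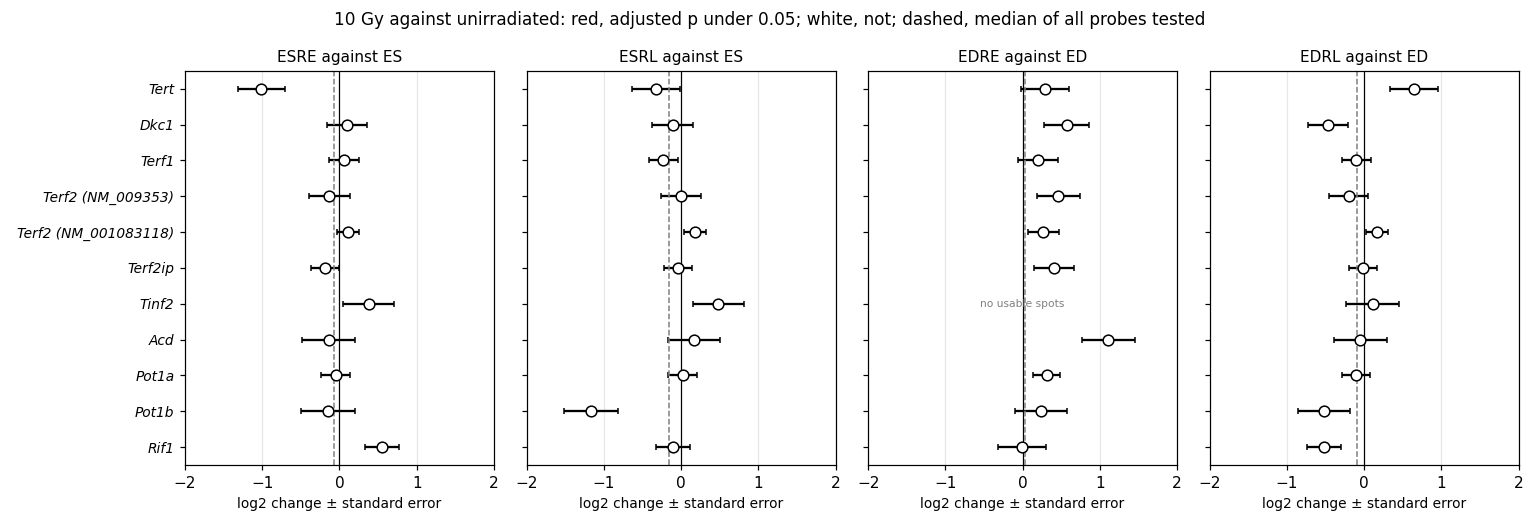
Log2 change of each probe after 10 Gy against unirradiated cells of the same type (x axis, with its standard error as the bar), 15 min (ESRE, EDRE) and 4 h (ESRL, EDRL) after IR, with the median of all probes tested as a dashed line. No point is red, since 0 members were called, and the largest changes were -1.17 for Pot1b in ESRL, 1.11 for Acd in EDRE and -1.01 for Tert in ESRE.

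Between the irradiated time points, 0 of 10 members were called in ES cells, against 6.01% of probes, with 3 at an unadjusted p under 0.05 and 0 in the methods' t-test. In ED cells 2 of 9 were called, both lower at 4 h, against 11.1% of probes in either direction. They were Acd (-1.16 ± 0.34, adjusted p = 0.0419) and Dkc1 (-1.04 ± 0.29, adjusted p = 0.0375). Both followed the EDRE arrays that stood apart. Within the scan that held EDRE replicate 1 and the EDRL arrays, Acd was at -0.18 (adjusted p = 0.76) and Dkc1 at -0.39 (adjusted p = 0.406).

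The response to IR was not shown to differ between the cell types for any member. The interaction of IR and cell type was called for 0 of 9 members at 15 min, against 2% of probes, and for 0 of 10 at 4 h, against 1.1%, with 2 and 1 members at an unadjusted p under 0.05. A fit of only the groups compared also called 0 at both times. Tert had the largest interaction at 15 min, 1.31 ± 0.44 (adjusted p = 0.132), and 0.97 ± 0.44 at 4 h (adjusted p = 0.312). Leaving out EDRE replicate 1 gave 4 called members at 15 min, and that fit rests on the EDRE arrays that stood apart.

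Of 42 genes of the telomere lists tested in ESRE against ES 1 was higher and 0 lower, where 0.563% of all probes were called. In ESRL against ES 1 of 42 was higher and 1 lower, where 8.87% of all probes were called. Dna2, a nuclease and helicase of replication and end processing, was called higher after IR in ES cells at both times. It read 0.60, 0.88 and 0.98 in ES, 2.19, 2.06 and 2.22 in ESRE, and 1.31, 2.32 and 1.92 in ESRL. These were rises of 1.33 ± 0.22 (adjusted p = 0.0214) and 1.03 ± 0.22 (adjusted p = 0.0142), without overlap. In ED it read -0.51, -0.69 and -0.38 and in EDRL -0.96, -0.93 and -1.01, and the interaction at 4 h was -1.47 ± 0.31 (adjusted p = 0.0464). At 15 min 0 of 41 listed genes had a called interaction, where 2% of all probes did. Under quantile normalization the rises of Dna2 were 1.21 and 0.86 and its 4 h interaction -1.06. None of these was called (adjusted p = 0.181, 0.188 and 0.428). With scan time as a random block the changes were 1.15, 1.02 and -1.31 and none was called (adjusted p = 1.00, 0.604 and 0.956), and scan and IR cannot be told apart for the ES arrays. Tnks, which encodes a tankyrase, was called lower in ESRL (-3.70 ± 0.90, adjusted p = 0.0219). But its ESRL arrays read -8.37, -4.60 and -9.78, with the lower spots not well above background. Without ESRL replicate 1 Tnks was at -3.31 and not called (adjusted p = 0.0823). The same arrays gave the calls of Tnks in ESRL against ESRE (-3.21 ± 0.90, adjusted p = 0.0494) and in EDRL against ESRL (3.85 ± 0.90, adjusted p = 0.00182), and without that replicate they were -2.82 (adjusted p = 0.201) and 3.45 (adjusted p = 0.0113).

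Of 48 listed genes tested in EDRE against ED 1 was lower and 1 higher, where 7.34% of all probes were called. In EDRL against EDRE 1 of 46 was higher and 4 lower, where 11.1% of all probes were called. The lower gene in EDRE against ED was the phosphatase subunit gene Ppp1cb (-1.61 ± 0.32, adjusted p = 0.0290). The higher one was the nuclease gene Ercc4 (0.47 ± 0.13, adjusted p = 0.0418). Without EDRE replicates 2 and 3 Ppp1cb was at -0.93 (adjusted p = 0.0939), and Ercc4 was at 0.56, no smaller, and not called (adjusted p = 0.103). In EDRL against EDRE Ppp1cb was higher by 1.48 ± 0.32 (adjusted p = 0.0257) and the histone methyltransferase gene Suv39h1 lower by -1.55 ± 0.28 (adjusted p = 0.00489), and without these arrays they were at 0.80 (adjusted p = 0.131) and -0.64 (adjusted p = 0.0825).

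Of the 18277 probes measured on all arrays, those without a single RefSeq name were not ranked here. Among the rest, the genes whose levels followed Tert most closely over the 18 arrays were Gramd3 (Pearson r = 0.961), Gm11596 (r = 0.960) and Hmgcll1 (r = 0.955). Like Tert they were lower in ED than in ES, with means of -1.64 and -3.02 for Gramd3, -3.34 and -7.27 for Gm11596, and -2.04 and -6.17 for Hmgcll1 in ES and ED. The correlation is given as a description, since the arrays share groups and scans.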

How the data were processed

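RNA of 18 samples, labeled with Cy3, was hybridized to 1-color Agilent arrays, 1 array a sample. The deposited intensity values are processed signals of Agilent Feature Extraction (10.7.3.1 in the file headers, 9.1 in the submitters' processing notes), background-subtracted by the authors' software, with no scaling from array to array. A deposited matrix from the authors, log2 for 30133 probes, served as an alternative and on testing followed the log2 signal, floored at 5, minus about the median of the array.

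Of 39448 spots an array, 1417 control and 200 negative control spots were left out, and spots marked as outliers were dropped from each fit. RefSeq named 22216 of 37246 probes. Each log2 signal was taken minus its array's 75th percentile. A probe was well above background where at least 50% of its spots were, and was tested where it was so on all 3 arrays of a group compared. In limma 3.58.1 (R 4.3.3) 1 model of 6 groups used all 18 arrays, with Benjamini-Hochberg adjustment over all probes tested in a comparison, and was tested on simulated data. The brightest probe stood for a gene. From each telomere list the 2 largest rises and falls in ED against ES among called genes detected on all arrays were named, and the largest rise and fall over all lists in every other comparison. Genes outside this rule are named as context, after their values were seen. The members and lists were chosen with earlier results of these data known.

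Alternatives were median scaling, quantile normalization, normexp background correction with an offset of 50, outlier spots kept, other detection filters, fits of only the groups compared, scan time as a block, the replicate number as a block, the methods' t-test, the matrix values, a log2 limit of 1, and fits without 1 array or without the arrays that stood apart. The number of arrays limits the precision. Positions are given only for the RefSeq promoters, on GRCm38.p6, since the array design and the RefSeq tables use different builds.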

Additional observations from a re-analysis of the deposited data

How the results depend on the processing

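Among members, 5 were called in ED against ES, where 51.82% of all probes were called. The number was 3 with a log2 limit of 1, quantile normalization, normexp or scan time as a random block. These settings called 41.62%, 39.65%, 39.15% and 29.7% of all probes in this order. It was 7 with median scaling, the matrix values, only the groups compared or the methods' t-test, which called 56.26%, 55.17%, 64.32% and 60.85%. In EDRL against ESRL 5 were called, with 4 to 7 over the other settings, beside 61.92% of all probes and 44.38% to 68.13% over those settings. In EDRE against ESRE 7 were called, and 1 in the methods' t-test, which tested 6 members there and not 9. The shares of all probes called were 56.67% and 35.72%. In ESRE against ES 0 became 1 with only the groups compared, a setting that called 5.28% of all probes there, against 0.563%. In EDRE against ED 0 became 1 with median scaling or without ESRL replicate 1, 2 with outlier spots kept, 3 with quantile normalization or normexp, and 4 with the matrix values, settings that called 13.6%, 11.7%, 12.3%, 35.3%, 37.9% and 18.5% of all probes in this order. In EDRL against ED 0 became 2 with only the groups compared and 1 in the methods' t-test, which called 18.44% and 12.01% of all probes, against 2.39%. In ESRL against ESRE 0 became 1 with scan as a random or fixed block (6.17% and 3.51% of all probes, against 6.01%). In EDRL against EDRE 2 became 4 with quantile normalization, outlier spots kept, normexp or the matrix values (32.8%, 22.1%, 37.4% and 19.7% of all probes), 1 with the replicate block, and 0 with only the groups compared, the methods' t-test, or scan as a random or fixed block. Without EDRE replicates 2 and 3 it was 0, and 1 in ESRL against ES and in ESRL against ESRE. The interaction at 15 min went from 0 to 1 with quantile normalization, which called 0.801% of all probes there, against 2%. The cause of these moves was not tested.

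Leaving out 1 array gave 4 to 6 called members in ED against ES, 4 to 8 in EDRE against ESRE, 5 to 7 in EDRL against ESRL, 0 in ESRE against ES, 0 to 1 in ESRL against ES, 0 to 4 in EDRE against ED, 0 in EDRL against ED, 0 to 1 in ESRL against ESRE, 0 to 5 in EDRL against EDRE, 0 to 4 in the interaction at 15 min and 0 in that at 4 h. The highest counts in EDRE against ED, EDRL against EDRE and the interaction came without EDRE replicate 1, which leaves the EDRE arrays of low signal.

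Directions turned for Pot1a in EDRE against ESRE (0.12 with median scaling, 1.68 with quantile normalization, 1.51 with normexp, 0.12 with the matrix values), for Dkc1 in the same comparison (0.90 with the matrix values), and for Terf2 by its other probe (-0.69, -0.53 and -0.70 in ED against ES, EDRE against ESRE and EDRL against ESRL).

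Replicate numbers did not pair the samples: same-numbered arrays correlated at -0.372 to 0.215 in their deviations from group means, and not every array correlated best with its own number. The replicate block left 5 called members in ED against ES and in EDRL against ESRL, and 6 in EDRE against ESRE.

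Few arrays a group limit all comparisons, and the low signal and dropped spots of EDRE replicates 2 and 3 limit the values of ED cells at 15 min. Pot1b and Tert in ED cells lay near background, where small differences in signal weigh heavily on the log2 scale.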
